A study of Mus musculus with 4 samples.

Results

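The genes described here are 42 antiviral interferon-stimulated genes, the effectors and amplifiers that cells switch on after sensing an interferon. They were taken as a fixed list of gene symbols drawn up separately from the nucleic acid sensors and the interferon-induced GTPases. The list does hold the GTPases Mx1 and Mx2 and the helicase Ddx60. The rule uses no measured value, but the list was chosen with earlier results of these data known. Of the 42 genes, 39 had at least 1 probe set annotated to them alone, out of 18194 such genes on the array. They were measured in RAW264.7 cells, a mouse macrophage line, after 4 days in hypoxia with IL6 (HC+IL6), hypoxia (HC), normoxia with IL6 (NC+IL6) or normoxia (NC). Hypoxia was 1% oxygen, IL6 was given at 25 ng/ml, and the sources used here do not give the oxygen level of normoxia. RNA of each condition was hybridized to 1 Affymetrix array of 45101 probe sets, each a group of short probes against 1 transcript. The 4 conditions share the cell line and the medium, and a single line of tumor origin limits them as a model of tissue macrophages. There were no replicates, so no p-value is given, and a condition cannot be told apart from its own array.

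Type I interferons bind the Ifnar1 and Ifnar2 receptor, whose kinases activate a complex of STAT proteins with Irf9 that binds the interferon-stimulated response element (ISRE) in target promoters. The products of these targets degrade foreign RNA, block virus entry and release, deplete or poison nucleotides, and attach the ubiquitin-like protein Isg15 to other proteins. Macrophages keep this program at a low level through interferon they release themselves. IL6 signals through a different receptor and mainly through Stat3, which binds a gamma-activated site (GAS), a shorter palindrome.

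The promoters of these genes are shown first, because the ISRE is the element the family is known by and was not used to choose the members. RefSeq promoter windows of 300 bases around the annotated start (GRCm38.p6) were found for 33 of the 42 genes. The ISRE was searched as GAAANNGAAA on both strands, so that a match reads TTTCNNTTTC on the other strand, and matches were allowed to overlap each other. It was in the windows of 13 of the 33 genes (39.4%), against 1066 of 26992 other genes (3.95%) and 3.44% of all 32851 windows. The GAS was searched as TTCNNNGAA, which reads the same on both strands, and was in 6 of the 33 (18.2%), against 9.54% of other genes and 8.30% of all windows. A match describes letters in a window and not a bound site. In the 9 stretches below, capitals mark the ISRE matches. They were chosen to show the array of elements in genes of different roles, with Trim21 as a gene that carries 2 overlapping matches and passed 2-fold in no comparison among those below. Ifit1 (chr19:34640760-34640838) and Ifit3 (chr19:34583348-34583441) are on the plus strand. The others are on the minus strand and are written 5′ to 3′ along the gene, namely Rsad2 (chr12:26456538-26456597), Oas1a (chr5:120907505-120907570), Oas3 (chr5:120777700-120777759), Bst2 (chr8:71537562-71537627), Ifitm3 (chr7:141010695-141010767), the second Trim30a start (chr7:104465195-104465254) and Trim21 (chr7:102565433-102565494).
Ifit1: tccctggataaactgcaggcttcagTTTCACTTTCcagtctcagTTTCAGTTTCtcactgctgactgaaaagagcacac
Ifit3: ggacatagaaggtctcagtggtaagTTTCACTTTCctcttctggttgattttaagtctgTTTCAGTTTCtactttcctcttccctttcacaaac
Rsad2: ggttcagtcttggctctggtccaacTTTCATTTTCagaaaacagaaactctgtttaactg
Oas1a: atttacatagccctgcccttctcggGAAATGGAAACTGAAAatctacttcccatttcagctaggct
Oas3: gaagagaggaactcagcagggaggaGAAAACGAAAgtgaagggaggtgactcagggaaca
Bst2: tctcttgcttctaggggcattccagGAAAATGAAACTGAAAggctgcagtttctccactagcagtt
Ifitm3: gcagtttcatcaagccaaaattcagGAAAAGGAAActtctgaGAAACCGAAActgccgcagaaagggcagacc
Trim30a: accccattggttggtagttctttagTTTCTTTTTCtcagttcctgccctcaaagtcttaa
Trim21: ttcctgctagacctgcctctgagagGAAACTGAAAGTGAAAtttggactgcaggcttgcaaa

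In Ifit1, Ifit3, Rsad2 and Trim30a the matches lay on the opposite strand of the gene. Oas1a, Bst2 and Trim21 each held 2 matches that overlap in 1 run, and in Bst2 and Ifitm3 a GAS match overlapped an ISRE match. The first base of the match lay 104 and 85 bases before the annotated start in Ifit1, 120 in Rsad2 and 75 in Oas3. Ifitm3 and Trim21 carried theirs just after the start. Further ISRE matches were in the windows of Ddx60, Isg15, Oas1g and Stat2. The 9 genes Ifi27, Ifi27l2a, Mx1, Mx2, Oas2, Parp14, Parp9, Rtp4 and Usp18 were not matched to a window.

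**Figure D1:**
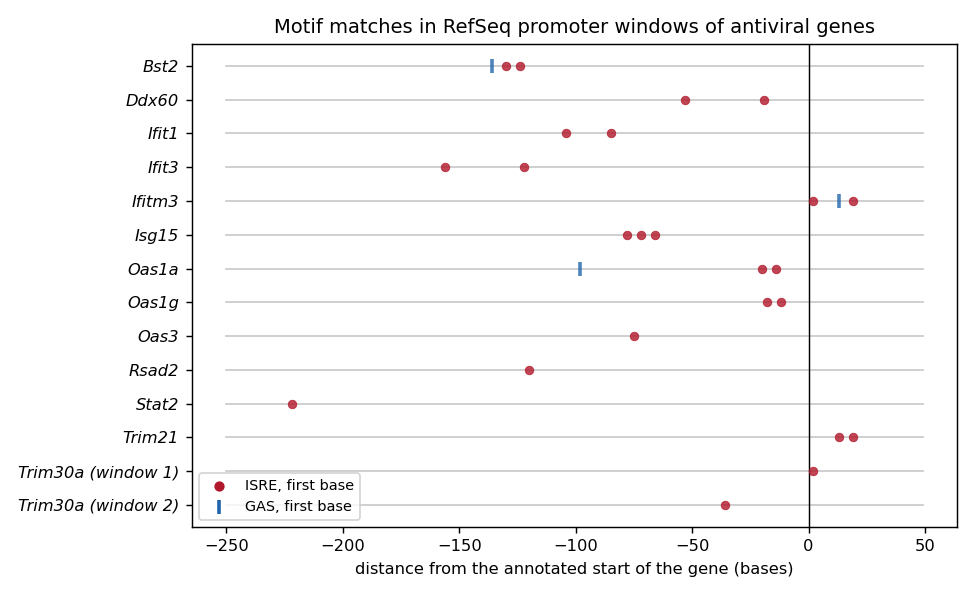
Position of ISRE matches (red points, first base) and GAS matches (blue ticks, first base) in the promoter windows of the 13 antiviral genes with an ISRE, as distance in bases from the annotated start. Each grey line is 1 window of 300 bases, and the 2 annotated starts of Trim30a are drawn separately.

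Values are log2 signals deposited by the authors and computed with MAS5, a summary of the probes of each probe set after background subtraction. Their scale has a trimmed mean signal of 500 per array, leaving out 2% at either end. Genes restricted to other tissues, with 113 probe sets, gave the background, and the floor was their 95th percentile, at log2 signals of 6.13 in HC+IL6, 6.57 in HC, 6.20 in NC+IL6 and 6.67 in NC. A gene with several probe sets is given by its brightest. The words higher and lower, given with a count, mean a difference of 2-fold or more (a log2 ratio of 1) between 2 arrays of which the brighter was above the floor. A dimmer signal under the floor was raised to it, and such a fold is written as at least that size. All 12 macrophage markers were above the floor on every array. None of the T cell, B cell and fibroblast markers were, and of the plasmacytoid dendritic cell markers, a cell type known for high interferon output, 3 of 5 were above it on at least 1 array, with summed signals of 3076 in HC+IL6, 4849 in HC, 2050 in NC+IL6 and 2659 in NC. Tcf4, a transcription factor of many tissues, made up most of that sum, with log2 signals of 11.42 in HC+IL6, 12.12 in HC, 10.68 in NC+IL6 and 11.18 in NC. Cox6a2 had 8.08 in HC+IL6, 7.55 in HC, 8.39 in NC+IL6 and 6.71 in NC, so that it was 3.20-fold higher in NC+IL6 than NC, as most antiviral genes were. Siglech was above the floor in HC at 7.21 and in NC at 7.16, and under it on both IL6 arrays. Of 7 neutrophil markers 1 was above the floor, S100a8, at 7.86 in HC+IL6, 6.59 in HC, 6.52 in NC+IL6 and 5.88 in NC, and of 5 epithelial markers 1 was, Epcam, at 6.44 in HC+IL6, 3.17 in HC, 5.13 in NC+IL6 and 7.18 in NC. S100a8 was 2.52-fold higher in HC+IL6 than NC+IL6. The summed signals of the neutrophil list lay between 168 and 378, and those of the epithelial list between 79.9 and 237. Among the macrophage markers, Itgam was 3.13-fold higher in HC than NC, 3.24-fold higher in HC+IL6 than NC+IL6 and 2.06-fold higher in HC+IL6 than HC. Fcgr1 was 3.31-fold higher with IL6 in normoxia and 2.37-fold higher in hypoxia, and Mpeg1 was 2.05-fold lower in HC+IL6 than HC. The other macrophage markers stayed within 2-fold. The part of other cells in the results was not tested. In RNA from a whole culture, fewer cells that express a gene and less RNA per cell cannot be told apart. The labels were checked by known targets. Of 9 genes induced by the hypoxia factor HIF, 7 were higher in HC than NC, against 3.69% of all genes, and 4 in HC+IL6 than NC+IL6, against 3.34%. Without a change of oxygen, 5 were higher in NC+IL6 than NC, against 3.39%. Of 7 genes induced by IL6 through Stat3, 3 were higher in NC+IL6 than NC, against 3.39%, and 3 in HC+IL6 than HC, against 2.40%. The median log2 ratios of these 7 were 0.17 and 0.87.

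Of the 39 antiviral genes, 38 were above the floor on at least 1 array and 29 on all 4. Mx2, a GTPase that restricts viruses, was under it everywhere, with log2 signals of 3.39 in HC+IL6, 5.23 in HC, 5.99 in NC+IL6 and 4.12 in NC. In 37 of the 38 genes NC+IL6 was the brightest array, and in 29 HC had the lowest listed signal. Signals under the floor have no order among themselves, which touches Ifit3, Oasl2, Mx1, Stat2 and Ddx60, where HC and at least 1 other array were under it. Among the 29 genes above the floor on all 4 arrays, NC+IL6 was brightest in 28 and HC dimmest in 21. The exception at the top was Ifi27, brightest in HC+IL6 and dimmest in NC+IL6. NC was dimmest in Ifit2, Isg20, Dtx3l, Trim30a, Samd9l and Uba7, and HC+IL6 in Trim25 and Trim21. Above the floor were 35 of the genes in HC+IL6, 30 in HC, 38 in NC+IL6 and 32 in NC. Ifit3, Oasl2 and Mx1 passed it in NC+IL6 alone.

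**Figure D2:**
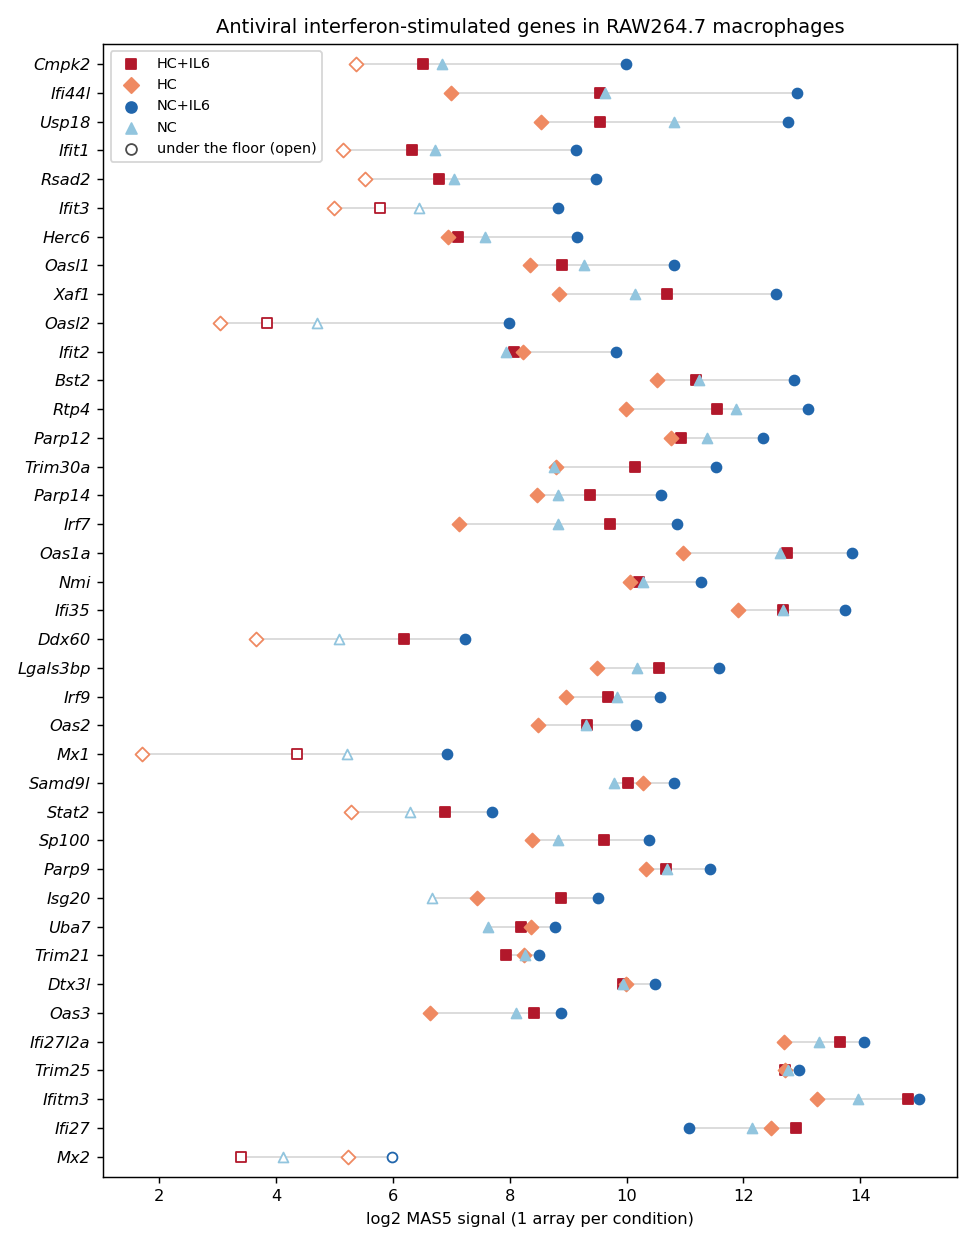
log2 MAS5 signal (x axis) of each antiviral gene with a probe set of its own on the 4 arrays, 1 array per condition, ordered by the log2 ratio of HC+IL6 over NC+IL6, with signals raised to the floor and the lowest ratio at the top. Open symbols are under the background floor. The blue circles of NC+IL6 lie at the right end of 37 of the 38 rows above the floor, and Ifi27 near the bottom runs the other way.

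Most of the family was higher with IL6 in normoxia. Of 38 genes tested, 26 were higher in NC+IL6 than NC (68.4%), against 3.39% of all genes tested, and 1 was lower, against 1.23%. The median log2 ratio was 1.24, beside -0.02 over all genes. With IL6 present, hypoxia went with lower signals. Of 38 genes, 22 were lower in HC+IL6 than NC+IL6 (57.9%), against 1.48% of all genes, 1 was higher, against 3.34%, and the median log2 ratio was -1.06, beside 0.03. These 2 comparisons share the NC+IL6 array, so a high value on that array enters both, with opposite sign. Ifit3, Oasl2 and Mx1 were tested through their NC+IL6 signal and could not have gone the other way. In NC+IL6 over NC the same held for Isg20, Stat2 and Ddx60. With genes kept by their mean log2 signal over the 4 arrays instead, a setting added after the values were seen, 25 of 35 were higher in NC+IL6 than NC, against 3.48% of all genes, and 20 of 35 were lower in HC+IL6 than NC+IL6, against 1.52%. The ratio of 3′ to 5′ probe signal, a measure of RNA quality, was 1.62 in HC+IL6, 1.73 in HC, 1.41 in NC+IL6 and 1.54 in NC for actin, highest where most of the family was dimmest and lowest where it was brightest. For Gapdh it was 0.88 in HC+IL6, 0.87 in HC, 0.93 in NC+IL6 and 0.93 in NC. The part of RNA quality in the result was not tested.

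The other 2 comparisons do not use the NC+IL6 array, but they share the HC array, so a low value there enters both, with opposite sign. Without IL6, 7 of 33 genes tested were lower in HC than NC (21.2%), against 1.09% of all genes, and none was higher, against 3.69%. The 7 were Usp18, Oas1a, Oas3, Irf7, Xaf1, Rtp4 and Ifi44l. Ifit1, Rsad2 and Cmpk2 were tested through their NC signal and could not have been higher. Isg20 was tested through its HC signal and could not have been lower. The median log2 ratio of HC over NC was -0.59, beside 0.04 over all genes, and 26 of the 33 ratios were negative. In hypoxia, 12 of 35 genes were higher with IL6 (34.3%), against 2.40% of all genes, and none was lower, against 2.16%. Ifit1, Stat2, Rsad2, Cmpk2 and Ddx60 were tested through their HC+IL6 signal and could not have been lower. The median log2 ratio of HC+IL6 over HC was 0.68, beside 0.00. The only spread these arrays give is the disagreement between probe sets of the same gene, a pooled SD of a log2 ratio of 0.35 for HC over NC, 0.36 for HC+IL6 over NC+IL6, 0.29 for NC+IL6 over NC and 0.33 for HC+IL6 over HC, which is no replicate error. The ratio exceeded that SD in 24 of 33, 36 of 38, 35 of 38 and 21 of 35 genes in this order, against 42.1%, 38.8%, 41.2% and 38.0% of all genes.

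**Figure D3:**
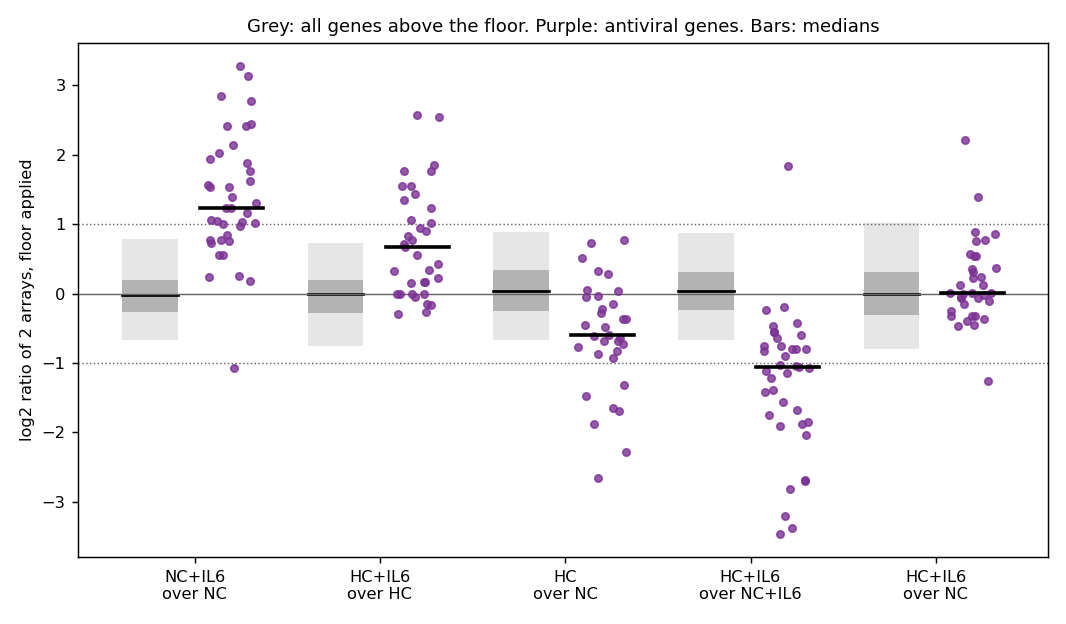
log2 ratio of 2 arrays, with signals raised to the floor (y axis), for the antiviral genes (purple points, 1 per gene) and for all genes above the floor (grey, dark box from the 25th to the 75th and light box from the 5th to the 95th percentile), in each comparison. Black bars are medians and dotted lines mark 2-fold. The points lie mostly above 0 for both IL6 comparisons, mostly below 0 for both hypoxia comparisons, and around 0 for HC+IL6 over NC.

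Among the transcription factors, Irf7, which drives the interferon genes themselves and amplifies the response, moved past 2-fold in all 4 of these comparisons. Its log2 signals were 9.72 in HC+IL6, 7.14 in HC, 10.86 in NC+IL6 and 8.83 in NC. It was 3.24-fold lower in HC than NC and 2.21-fold lower in HC+IL6 than NC+IL6, and with IL6 it was 5.99-fold higher in hypoxia and 4.07-fold higher in normoxia. Stat2, the STAT that is particular to the ISRE-binding complex, had 6.89 in HC+IL6, 5.29 in HC, 7.69 in NC+IL6 and 6.29 in NC. Without IL6 it was under the floor in either oxygen level. It was at least 2.02-fold higher in NC+IL6 than NC, a call that was lost with a floor at the 99th percentile, where the log2 ratio was 0.48. Irf9, the DNA-binding subunit of that complex, had 9.68 in HC+IL6, 8.96 in HC, 10.58 in NC+IL6 and 9.83 in NC, and its ratios, from -0.90 to 0.75, passed 2-fold in no comparison.

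In the Isg15 pathway, 2 of 4 genes measured were lower in HC+IL6 than NC+IL6, against 1.48% of all genes. In HC over NC, 1 of 4 was lower, against 1.09%, and in NC+IL6 over NC 3 of 4 were higher, against 3.39%. Usp18 removes Isg15 from proteins and also restrains signaling at the type I interferon receptor. Its log2 signals were 9.55 in HC+IL6, 8.54 in HC, 12.76 in NC+IL6 and 10.82 in NC. It was 9.23-fold lower in HC+IL6 than NC+IL6 and 4.85-fold lower in HC than NC, and with IL6 it was 2.02-fold higher in hypoxia and 3.84-fold higher in normoxia. The 2.02-fold is at the edge of the rule and became a log2 ratio of 0.97 with the background median added to every signal. Herc6, the mouse ligase that attaches Isg15, had 7.11 in HC+IL6, 6.94 in HC, 9.15 in NC+IL6 and 7.58 in NC. Its 4.11-fold lower signal in HC+IL6 than NC+IL6 and 2.97-fold higher signal in NC+IL6 than NC set NC+IL6 apart from the other arrays. As a mean over its 4 probe sets, the log2 ratio of HC+IL6 over NC+IL6 was -1.38 and that of NC+IL6 over NC was 0.93, short of 2-fold. Uba7, the enzyme that activates Isg15 for transfer, had 8.19 in HC+IL6, 8.36 in HC, 8.78 in NC+IL6 and 7.62 in NC, and was 2.24-fold higher in NC+IL6 than NC. Trim25, a ubiquitin ligase that acts in RNA sensing, had 12.71 in HC+IL6, 12.71 in HC, 12.95 in NC+IL6 and 12.76 in NC. A dimmer Trim25 probe set differed more, with 8.61 in HC+IL6, 7.81 in HC, 9.29 in NC+IL6 and 8.39 in NC. Its ratios were still within 2-fold. Another had 12.27, 12.36, 12.67 and 12.44 in the same order of arrays. Isg15 itself was on no probe set of its own and was not analysed here.

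The RNA-binding and RNA-degrading proteins were the largest group, with 10 genes measured. In this group 7 of 10 were lower in HC+IL6 than NC+IL6, against 1.48% of all genes. In NC+IL6 over NC, 7 of 10 were higher, against 3.39%. Further, 2 of 7 were lower in HC than NC, against 1.09%, and 3 of 8 were higher in HC+IL6 than HC, against 2.40%. The Ifit proteins bind foreign RNA and block its translation. Ifit1 had log2 signals of 6.33 in HC+IL6, 5.14 in HC, 9.14 in NC+IL6 and 6.72 in NC, so that it was 7.04-fold lower in HC+IL6 than NC+IL6 and 5.35-fold higher in NC+IL6 than NC. With a floor at the 99th percentile the log2 ratio of HC+IL6 over NC+IL6 was -1.97, in place of -2.81. Ifit3, which stabilizes the Ifit complex, had 5.78 in HC+IL6, 4.99 in HC, 8.82 in NC+IL6 and 6.45 in NC, at least 6.46-fold lower in HC+IL6 than NC+IL6. Only its NC+IL6 signal was above the floor, and with the stricter floor the log2 ratio was -1.64. Ifit2 had 8.07 in HC+IL6, 8.22 in HC, 9.82 in NC+IL6 and 7.94 in NC, all above the floor. It was 3.37-fold lower in HC+IL6 than NC+IL6, while its log2 ratio of HC over NC was 0.28 and that of HC+IL6 over HC was -0.15, so NC+IL6 alone stood apart.

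The Oas enzymes make oligoadenylates that switch on the nuclease RNase L. Oas1a had 12.74 in HC+IL6, 10.97 in HC, 13.86 in NC+IL6 and 12.62 in NC, with HC the array that stood apart. It was 3.14-fold lower in HC than NC, and with IL6 it was 3.42-fold higher in hypoxia and 2.36-fold higher in normoxia. Oas3, which lies on the same chromosome 5, had 8.41 in HC+IL6, 6.64 in HC, 8.88 in NC+IL6 and 8.10 in NC, 2.77-fold lower in HC than NC and 3.42-fold higher in HC+IL6 than HC. Its HC signal was close to the floor of 6.57, and with a floor at the 99th percentile the log2 ratio of HC over NC was -0.72 and no longer passed 2-fold, while that of HC+IL6 over HC was 1.03. Its log2 ratio of HC+IL6 over NC+IL6 was -0.47. Oas2, the direct neighbor of Oas3, had 9.32 in HC+IL6, 8.49 in HC, 10.15 in NC+IL6 and 9.31 in NC, with ratios within 2-fold throughout. Oasl1, a catalytically inactive relative that in mice restrains translation of Irf7, had 8.90 in HC+IL6, 8.34 in HC, 10.80 in NC+IL6 and 9.27 in NC. It was 3.74-fold lower in HC+IL6 than NC+IL6. Oasl2 had 3.84 in HC+IL6, 3.05 in HC, 7.98 in NC+IL6 and 4.70 in NC, at least 3.62-fold lower in HC+IL6 than NC+IL6. With the stricter floor that log2 ratio was -0.81, short of 2-fold, and without a floor it was -4.14. For NC+IL6 over NC the log2 ratios were 0.77 and 3.28 in the same order of settings.

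Isg20, an exonuclease that degrades viral RNA, was higher with IL6 in both oxygen levels and dimmest in NC. Its log2 signals were 8.88 in HC+IL6, 7.45 in HC, 9.52 in NC+IL6 and 6.66 in NC, the last just under the floor of 6.67. It was at least 7.19-fold higher in NC+IL6 than NC and 2.71-fold higher in HC+IL6 than HC, and its log2 ratio of HC+IL6 over NC+IL6 was -0.63. Ddx60, a helicase of the RNA-sensing pathway, had 6.19 in HC+IL6, 3.66 in HC, 7.23 in NC+IL6 and 5.08 in NC. It was 2.06-fold lower in HC+IL6 than NC+IL6, both signals being near the floor, and with the stricter floor the log2 ratio was -0.06. Oas1g was on no probe set of its own and was not analysed here.

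Rsad2 and Cmpk2 lie side by side on chromosome 12, and both were far brighter in NC+IL6 than on the other arrays. Rsad2 encodes viperin, which turns CTP into a chain terminator of viral RNA synthesis, and Cmpk2 is a mitochondrial nucleotide kinase that supplies it. Cmpk2 had log2 signals of 6.52 in HC+IL6, 5.37 in HC, 9.99 in NC+IL6 and 6.84 in NC. Its log2 ratio of HC+IL6 over NC+IL6 was -3.46, or -2.81 with the stricter floor, and it was 8.83-fold higher in NC+IL6 than NC. Rsad2 had 6.79 in HC+IL6, 5.52 in HC, 9.48 in NC+IL6 and 7.04 in NC, 6.47-fold lower in HC+IL6 than NC+IL6 and 5.42-fold higher in NC+IL6 than NC. In HC both genes were under the floor, so the ratios of HC over NC, -0.28 for Cmpk2 and -0.48 for Rsad2 on the log2 scale, are bounds. A second Cmpk2 probe set was under the floor on all 4 arrays, and the 2 other Rsad2 probe sets, at 7.86 and 8.50 in NC+IL6, passed it on that array alone. As a mean over the 3 probe sets, the Rsad2 log2 ratio of NC+IL6 over NC was 1.82.

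Of the proteins that act on virus entry, release and capsids, 1 of 4 was lower in HC+IL6 than NC+IL6, against 1.48% of all genes. None of 3 was lower in HC than NC, against 1.09%, and 3 of 4 were higher in NC+IL6 than NC, against 3.39%. The 1 lower in hypoxia was Bst2, or tetherin, which holds budding virus on the cell surface. It had 11.19 in HC+IL6, 10.51 in HC, 12.87 in NC+IL6 and 11.25 in NC, 3.19-fold lower in HC+IL6 than NC+IL6 and 3.07-fold higher in NC+IL6 than NC. Ifitm3, which blocks virus fusion in endosomes, had 14.81 in HC+IL6, 13.27 in HC, 15.00 in NC+IL6 and 13.96 in NC. It was higher with IL6 in both oxygen levels, 2.92-fold in hypoxia and 2.06-fold in normoxia, and its log2 ratio of HC+IL6 over NC+IL6 was -0.19. Samd9l, a restriction factor of poxviruses, had 10.02 in HC+IL6, 10.28 in HC, 10.81 in NC+IL6 and 9.78 in NC, and was 2.05-fold higher in NC+IL6 than NC. Mx1, a GTPase that in mice blocks influenza virus, had 4.36 in HC+IL6, 1.71 in HC, 6.93 in NC+IL6 and 5.22 in NC, and only the NC+IL6 signal was above the floor.

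Parp14, Dtx3l and Parp9 lie next to each other on chromosome 16, and of the 3 only Parp14 passed 2-fold. Parp enzymes attach ADP-ribose, and Dtx3l is the ubiquitin ligase that pairs with Parp9. Parp14 had 9.37 in HC+IL6, 8.46 in HC, 10.59 in NC+IL6 and 8.82 in NC, 2.33-fold lower in HC+IL6 than NC+IL6 and 3.39-fold higher in NC+IL6 than NC. Parp9 had 10.68 in HC+IL6, 10.34 in HC, 11.43 in NC+IL6 and 10.70 in NC. Dtx3l had 9.94 in HC+IL6, 9.99 in HC, 10.49 in NC+IL6 and 9.93 in NC, so both shared the high NC+IL6 signal at a smaller size. Parp12, an antiviral relative encoded on another chromosome, had 10.92 in HC+IL6, 10.76 in HC, 12.34 in NC+IL6 and 11.37 in NC, and was 2.67-fold lower in HC+IL6 than NC+IL6.

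Of the TRIM and nuclear body proteins, Trim30a, which in mice restrains NF-κB signaling, was higher with IL6 in both oxygen levels. Its log2 signals were 10.15 in HC+IL6, 8.80 in HC, 11.53 in NC+IL6 and 8.75 in NC. It was 6.86-fold higher in NC+IL6 than NC, 2.55-fold higher in HC+IL6 than HC and 2.61-fold lower in HC+IL6 than NC+IL6, while HC and NC lay within 0.04 of each other. Sp100, a component of the nuclear bodies that silence incoming viral genomes, had 9.61 in HC+IL6, 8.38 in HC, 10.37 in NC+IL6 and 8.83 in NC. With IL6 it was 2.36-fold higher in hypoxia and 2.91-fold higher in normoxia, and neither hypoxia comparison reached 2-fold in this probe set. A dimmer Sp100 probe set had 7.66 in HC+IL6 and 8.67 in NC+IL6, a log2 ratio of -1.02, just past 2-fold. Trim21, the cytosolic receptor for antibody-coated virus, had 7.94 in HC+IL6, 8.24 in HC, 8.50 in NC+IL6 and 8.26 in NC.

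Of the remaining interferon-induced proteins, 6 of 8 were lower in HC+IL6 than NC+IL6, against 1.48% of all genes. In HC over NC, 3 of 8 were lower, against 1.09%. Ifi44l, whose function is less well defined, had the widest range of any member, 5.93 on the log2 scale, with log2 signals of 9.54 in HC+IL6, 6.99 in HC, 12.92 in NC+IL6 and 9.64 in NC. It was 10.4-fold lower in HC+IL6 than NC+IL6 and 6.28-fold lower in HC than NC, and with IL6 it was 5.86-fold higher in hypoxia and 9.71-fold higher in normoxia, so that HC+IL6 and NC had nearly the same signal. As a mean over its probe sets, its log2 ratio was -2.54 for HC+IL6 over NC+IL6 and 2.24 for NC+IL6 over NC. Xaf1, which opposes the apoptosis inhibitor Xiap, had 10.69 in HC+IL6, 8.84 in HC, 12.56 in NC+IL6 and 10.15 in NC. It passed 2-fold in all 4 comparisons, with 3.66-fold lower signal in HC+IL6 than NC+IL6 and 5.32-fold higher signal in NC+IL6 than NC. Rtp4, a chaperone of membrane receptors, had 11.55 in HC+IL6, 10.00 in HC, 13.11 in NC+IL6 and 11.87 in NC, 3.68-fold lower in HC than NC and 2.94-fold lower in HC+IL6 than NC+IL6.

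Ifi35 and Nmi, which bind each other, changed by similar amounts on either side of NC+IL6. Ifi35 had 12.68 in HC+IL6, 11.90 in HC, 13.74 in NC+IL6 and 12.68 in NC, 2.08-fold lower in HC+IL6 than NC+IL6 and 2.09-fold higher in NC+IL6 than NC. Nmi had 10.22 in HC+IL6, 10.06 in HC, 11.28 in NC+IL6 and 10.28 in NC, 2.09-fold lower in HC+IL6 than NC+IL6 and just past 2-fold higher in NC+IL6 than NC, with a log2 ratio of 0.96 after quantile normalization. Lgals3bp, a secreted glycoprotein, had 10.55 in HC+IL6, 9.49 in HC, 11.57 in NC+IL6 and 10.18 in NC, and with IL6 it was 2.08-fold higher in hypoxia and 2.63-fold higher in normoxia. Ifi44 was on no probe set of its own and was not analysed here.

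Ifi27, a small membrane protein and one of the best known interferon markers in human blood, ran against the family. Its log2 signals were 12.91 in HC+IL6, 12.48 in HC, 11.07 in NC+IL6 and 12.15 in NC. It was 3.56-fold higher in HC+IL6 than NC+IL6 and 2.11-fold lower in NC+IL6 than NC, the 1 gene called in each of these directions. A second probe set gave the same order, with 12.69 in HC+IL6, 12.14 in HC, 10.70 in NC+IL6 and 11.66 in NC. Both probe sets carry a suffix that marks probes shared between transcripts. Its neighbor Ifi27l2a, a paralog with no other protein-coding gene between them on chromosome 12, had 13.64 in HC+IL6, 12.70 in HC, 14.06 in NC+IL6 and 13.29 in NC, brightest in NC+IL6 and dimmest in HC.

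The effect of hypoxia could be set with and without IL6 in 33 genes, in 2 comparisons that share no array. Both log2 ratios were negative in 26, and 6 genes (18.2%) were called lower in both, Usp18, Oas1a, Irf7, Xaf1, Rtp4 and Ifi44l, against 0.32% of the 9448 genes with both ratios. A further 13 (39.4%) were called lower with IL6 and not without it, against 1.11%. Cmpk2, Ifit1 and Rsad2 are among these 13. Their NC signal lay so near the floor of HC that they could not have been called lower without IL6. The difference of the log2 ratios, with IL6 minus without, was negative in 26 of the 33 genes, with a median of -0.61, beside 0.01 over all 9448. In Cmpk2, Ifit1 and Rsad2 HC was under the floor, so the size of their difference is not given. Over the 29 genes above the floor on all 4 arrays it was negative in 22, with a median of -0.53, beside 0.00 over 8736 genes. Ifit2, 1 of the 29, had a difference of -2.03. It was positive in Ifi27 at 1.51, Oas3 at 0.998, Irf7 at 0.56, Oas1a at 0.53, Ifitm3 at 0.50, Rtp4 at 0.32 and Ifi27l2a at 0.17. With 1 array per condition this difference of ratios has no test.

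**Figure D4:**
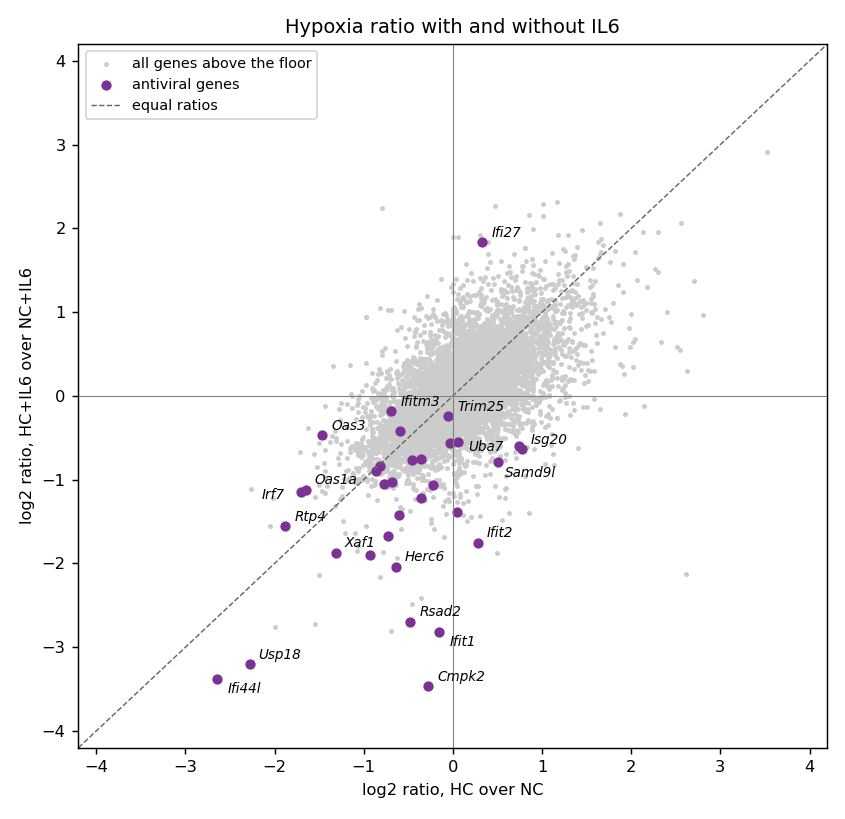
log2 ratio of HC+IL6 over NC+IL6 (y axis) against that of HC over NC (x axis), with signals raised to the floor, for all genes above the floor (grey) and the antiviral genes (purple). Most purple points lie in the lower left and under the dashed line of equal ratios, with Ifit2 at -1.75 and 0.28 below it and Ifi27 at 1.83 and 0.33 above it (y, then x). The HC signals of Cmpk2, Ifit1 and Rsad2 were raised to the floor, so these points would lie further left without it.

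One more comparison, of both factors together with neither, was added after the values were seen. Of 35 antiviral genes 2 were higher in HC+IL6 than NC, Isg20 and Trim30a, against 5.24% of all genes, and 1 was lower, Usp18, against 1.88%. Trim30a was 2.63-fold and Isg20 at least 4.64-fold higher, and Usp18 was 2.40-fold lower. The median log2 ratio was 0.01, beside 0.00 over all genes. Bst2 at -0.06, Nmi at -0.06, Ifi35 at 0.01 and Oas2 at 0.01 had about the same log2 signal on both arrays.

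Next come the genes that act upstream in the pathway. Of 9 interferon ligand genes 7 had a probe set, and only Ifnb1, which encodes interferon beta, was above the floor, at 6.48 in HC+IL6, against 5.30 in HC, 6.01 in NC+IL6 and 6.18 in NC. All 4 receptor genes were above the floor, and none passed 2-fold in a hypoxia or an IL6 comparison. Ifnar1 had 10.57 in HC+IL6, 9.90 in HC, 10.18 in NC+IL6 and 9.48 in NC. Ifnar2 had 11.68 in HC+IL6, 11.94 in HC, 11.62 in NC+IL6 and 11.67 in NC. The receptors of interferon gamma differed as little, with ranges of 0.84 for Ifngr1 and 0.25 for Ifngr2 on the log2 scale. The kinases Jak1, Jak2 and Tyk2 were above the floor with ranges of 0.42, 1.22 and 0.25. In HC+IL6 over NC, the comparison added later, Ifnar1 and Jak2 were past 2-fold, with log2 ratios of 1.08 and 1.22. Stat3, the main STAT of IL6 signaling, had 10.58 in HC+IL6, 9.14 in HC, 10.27 in NC+IL6 and 9.18 in NC, with log2 ratios of 1.45 for HC+IL6 over HC and 1.09 for NC+IL6 over NC.

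Of the other interferon regulatory factors, Irf1, Irf2, Irf3, Irf5 and Irf8 were above the floor and 0 of these 5 passed 2-fold. Of 8 restraints of the pathway, Socs3, an inhibitor of IL6 signaling that Stat3 induces, was the 1 that did, with 13.55 in HC+IL6, 11.26 in HC, 12.59 in NC+IL6 and 10.36 in NC. It was higher with IL6 in both oxygen levels, with its highest signal in HC+IL6 and its next highest in NC+IL6. The part of Socs3 in the antiviral signals was not tested. Socs1, which restrains interferon receptors, was above the floor in HC alone, at 6.94. The phosphatases of the list, Ptpn1, Ptpn2, Ptpn6, Ptpn11 and Ptprc, and the STAT inhibitor Pias1 stayed within 2-fold.

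Genes with and without an ISRE in the promoter window were then set side by side. In HC+IL6 over NC+IL6, 7 of 11 genes with the motif and 12 of 19 genes with a window and no motif were called lower. The share of all genes was 1.48%, and the medians were -1.12 and -1.06. In NC+IL6 over NC, 8 of 11 with the motif and 15 of 19 without it were called higher, against 3.39% of all genes. Here the medians were 1.24 and 1.39. In HC over NC the medians were -0.58 over 8 genes with it and -0.53 over 18 without it. No match says only that these letters were not in the window. Where a gene had several probe sets above the floor, they had the same sign in 13 of 13 genes for HC+IL6 over NC+IL6, in 12 of 13 for NC+IL6 over NC and in 8 of 10 for HC over NC, but in only 5 of 11 for HC+IL6 over HC.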

How the data were processed

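The authors deposited 1 table of log2 signals for 4 arrays of RNA from RAW264.7 cells, 1 array per condition. Per the labels the authors used MAS5, and the sources used here do not give its version. Each array has a mean signal of 500 after trimming 2% at each end, and 317 probe sets in HC+IL6, 256 in HC, 437 in NC+IL6 and 388 in NC are listed at a log2 signal of 0.

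Probe sets were named through the platform annotation, which lists 35890 of them, 34958 with 1 symbol, which were used, and 932 with several. 9211 are not listed. The floor rests on 113 probe sets of 79 genes, out of 86 listed as restricted to other tissues, of which 9 were above it on at least 1 array. The floor as a signal was 69.9 in HC+IL6, 94.8 in HC, 73.6 in NC+IL6 and 101.9 in NC. A ratio whose bound would have pointed away from the brighter array was set to 0. Depth does not apply to arrays, and their number limits the precision.

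The members and the pathway, marker and background lists were chosen with earlier results of these data known. Every member past 2-fold in at least 1 of the 4 comparisons is named with its signal on each array, as are pathway genes past 2-fold and the receptor, kinase and STAT genes above the floor. The signals of the other members were added after they were seen. Calculations used numpy 2.4.6 and pandas 2.3.3 under Python 3.11.15, and the figures matplotlib 3.10.9. No statistical test was run. Alternative settings were normalization by quantiles or by cyclic loess (limma 3.58.1, R 4.3.3), a floor at the 99th percentile, no floor, the background median added to every signal, the mean over probe sets, probe sets without a suffix for shared probes, a fold of 1.5 and, added after the values were seen, genes kept by a mean log2 signal above the mean floor.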

Additional observations from a re-analysis of the deposited data

Results flagged for a closer look

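The 2 hypoxia ratios, with and without IL6, had opposite signs in 6 antiviral genes, and in 3 of them both ratios were larger than the SD between probe sets. In these 3 the log2 ratios were -0.63 for HC+IL6 over NC+IL6 and 0.77 for HC over NC in Isg20, -0.79 and 0.51 in Samd9l, and -0.59 and 0.74 in Uba7, in the same order of comparisons. None of these ratios reached 2-fold. In the others, Ifit2, Trim30a and Dtx3l, the ratio of HC over NC was within that SD. The 3 Uba7 probe sets disagreed on HC over NC, with log2 ratios of 0.74, 0.92 and -0.14. The Isg20 value of 0.77 is a bound because NC was under the floor. The IL6 ratios of Ifi27 had opposite signs in the 2 oxygen levels, with log2 ratios of 0.43 for HC+IL6 over HC and -1.08 for NC+IL6 over NC. Each value is the ratio of 2 arrays, and the difference between the comparisons was not tested.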

How the results depend on the processing

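No paired analysis was possible because each condition has 1 array. No median of the family, and none of 554 values of single genes, was reversed under any setting, and 520 of the 554 moved by less than the spread between probe sets. Of the 34 that moved more, 17 did so with the floor at the 99th percentile. The 554 values cover only genes past 2-fold in the main setting, where a reversal was unlikely. Some could not move, such as the mean over probe sets of a gene with 1 probe set. For HC over NC without a floor, 1 of 39 was higher and 14 were lower, against 15.7% and 11.5% of all genes. At 1.5-fold, 2 of 33 were higher and 17 lower, against 12.6% and 6.97%. Without a floor, the median for NC+IL6 over NC was 1.54 and 1 gene was lower in HC+IL6 than HC. With probe sets that carry no suffix, which leave out Ifi27, 0 genes were higher in HC+IL6 than NC+IL6, 0 lower in NC+IL6 than NC and 0 higher in HC+IL6 than NC. The shares of all genes were 3.86%, 1.49% and 5.24% in this order. At 1.5-fold, 6 of 35 were higher in HC+IL6 than NC, against 13.6% of all genes. The scaling moved the calls over all genes more than those of the family. Of all genes called in HC over NC, 77.3% were higher, against 56.0% after quantile normalization and 60.05% after cyclic loess, and for HC+IL6 over NC+IL6 the shares were 69.2%, 46.0% and 46.0%. After quantile normalization 8 of 33 and 23 of 38 antiviral genes were lower in these 2 comparisons, against 1.98% and 2.43% of all genes. Signals near the floor and the single array per condition limit what can be read from Ifit3, Oasl2, Mx1, Ddx60 and Stat2.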
